A study of Mus musculus with 2 samples.

Results

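The Notch target genes described here are Hey1, Hey2, Heyl, Hes1, Hes5 and Nrarp, 6 of the 31053 genes listed in each library. They were chosen by symbol, for their place in the Notch pathway, and all 6 were found. They were measured by single-cell RNA sequencing in C57BL/6 mouse embryos at the embryonic stages E11.5 and E10.5, as a single library per stage. The labels give dorsal aorta and fetal liver as the tissues of both libraries, which were dissociated with collagenase/dispase and then trypsin-EDTA. The labels name no altered gene and no agent for either library. The number of embryos is not given in the sources used here, and no library was repeated. No test between stages was therefore possible, and every interval below covers counting error only.

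Notch receptors are cut when a ligand on a neighbouring cell binds them, and the released intracellular part enters the nucleus, where it joins the DNA-binding protein Rbpj and switches on target genes. Hey1, Hey2 and Heyl encode basic helix-loop-helix repressors that take part in arterial and smooth muscle development, and Hes1 and Hes5 encode related repressors that hold back differentiation, best known in neural progenitors. Nrarp encodes a small ankyrin-repeat protein that binds the Notch intracellular part and dampens the pathway, so it acts as a feedback inhibitor. In the aorta, Notch signalling takes part in arterial identity and in the emergence of blood stem cells from the endothelium.

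In GRCm38, Hey1 lies on the minus strand at chr3:8663359-8667256, Hey2 on the minus strand at chr10:30832359-30842801, and Heyl on the plus strand at chr4:123233556-123249875. Hes1 lies on the plus strand at chr16:30064384-30067796, Hes5 on the plus strand at chr4:154960923-154962371, and Nrarp on the plus strand at chr2:25180758-25183339. All 6 are annotated as protein-coding. RefSeq promoters of build GRCm38.p6 were matched for 3 of the 6 genes, Hey2, Hes5 and Nrarp, while Hey1, Heyl and Hes1 are named only. The promoters are shown because binding of Rbpj near the start is how these genes are known to be switched on. Each run below reads 5′ to 3′ along the gene's strand and holds 250 bases before the start and 10 after it, at chr10:30842774-30843033 (minus strand) for Hey2, chr4:154960673-154960932 (plus strand) for Hes5 and chr2:25180508-25180767 (plus strand) for Nrarp. Capitals mark matches, on either strand, to the Rbpj motif GTGNGAA, which holds the shorter motif TGGGAA where its open base is G, and to the E-box CACGTG.
Hey2: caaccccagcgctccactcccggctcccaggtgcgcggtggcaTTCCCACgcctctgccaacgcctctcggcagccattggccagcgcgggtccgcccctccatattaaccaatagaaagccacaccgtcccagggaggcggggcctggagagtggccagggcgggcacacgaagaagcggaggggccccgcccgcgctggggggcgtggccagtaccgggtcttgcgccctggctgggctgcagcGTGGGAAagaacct
Hes5: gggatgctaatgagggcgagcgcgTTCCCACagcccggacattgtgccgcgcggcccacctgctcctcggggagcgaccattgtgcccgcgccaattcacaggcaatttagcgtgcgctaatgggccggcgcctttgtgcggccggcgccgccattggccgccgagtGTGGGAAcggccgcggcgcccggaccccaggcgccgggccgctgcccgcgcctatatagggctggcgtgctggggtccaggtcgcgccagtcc
Nrarp: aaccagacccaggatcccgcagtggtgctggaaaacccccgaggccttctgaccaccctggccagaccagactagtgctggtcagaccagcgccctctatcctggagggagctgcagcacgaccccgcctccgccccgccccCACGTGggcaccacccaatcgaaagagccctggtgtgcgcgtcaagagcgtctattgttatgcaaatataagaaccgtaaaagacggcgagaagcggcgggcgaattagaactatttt

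The Rbpj motifs TGGGAA (short form) and GTGNGAA (long form), the E-box motif CACGTG and the motif CACGCG, which Hes proteins are known to bind, were searched on both strands in windows of 250 bases before and 50 after the start. The short and the long Rbpj motif were each found in 2 of the 3 promoters, Hey2 and Hes5, and they overlapped at every one of those places. In Hey2 the long form began 207 bases before the start on the opposite strand and 4 bases before it on the gene's strand. In Hes5 it began 226 bases before the start on the opposite strand and 83 bases before it on the gene's strand. Nrarp held CACGTG 108 bases before its start and neither Rbpj motif. CACGCG was in none of the 3, nor was a head-to-head pair of long forms with 14 to 18 bases between them. Of 32841 promoters of the same length, 25.6% held the short form, 14.2% the long form, 7.15% held CACGTG, 9.27% held CACGCG, and 4 (0.0122%) held the pair. A match describes these letters only, and no binding was measured.

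Levels are unique molecular identifiers (UMIs, each standing for a captured transcript) of a gene per 1000000 UMIs (CPM), pooled over a class's cells within a library, with haemoglobin and mitochondrial genes left out of the total. The libraries held 12289 barcodes with 159619785 UMIs at E11.5 and 10996 barcodes with 151474708 UMIs at E10.5. Of these, 8976 and 8009 cells were analysed, with medians of 13131 and 15479 UMIs per cell. The libraries shared 37 barcode sequences, 20 of them among the analysed cells. Cells fell into 56 clusters, and each class is named by likeness to its marker genes. The Notch pathway genes were left out of the clustering, except for the markers Efnb2, Gja5, Sox17, Runx1 and Dlk1. Cells with the markers of both labelled tissues were present, with 57 and 140 arterial endothelial-like cells and 288 and 83 hepatoblast-like cells at E11.5 and at E10.5. In whole libraries Hey1 stood at 16.1 CPM at E11.5 and 39.1 CPM at E10.5, and Hes5 at 0.518 and 4.43 CPM, and Nrarp had 1542 and 2898 UMIs, all lower at E11.5. Hey2 stood at 8.02 and 5.10 CPM, while Heyl (12.1 and 11.9 CPM) and Hes1 (58.0 and 56.8 CPM) were close in the libraries.

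The first comparison asked in which cells each gene was high, over 19 classes at E11.5 and 24 at E10.5 that held at least 50 cells. Hey1, Hey2 and Nrarp were highest in arterial endothelial-like cells at E11.5, Heyl was highest in smooth muscle or mural-like cells at both stages, Hes1 was spread over most classes, and Hes5 was high in neural cells, which were found at E10.5. Hey1 was measured at 286 CPM (95% Poisson interval 257 to 318) in arterial endothelial-like cells at E11.5. Smooth muscle or mural-like cells came next in that library with 44.6 CPM (39.1 to 50.6), so the intervals did not overlap. At E10.5 Hey1 was highest in an unnamed vascular cluster, V0, with 500 CPM (421 to 589), followed by arterial endothelial-like cells with 365 CPM (341 to 391) and notochord or floor plate-like cells with 224 CPM (204 to 245). V0 held shallow cells, with a median of 1994 UMIs at E11.5 and 1868.5 UMIs at E10.5, and carried the arterial gene Sox17 among its leading genes. Hey1 was at 20 CPM or more in 7 of 19 classes at E11.5 and in 15 of 24 at E10.5.

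Hey2 had a narrower range of cells. It was measured at 152 CPM (131 to 176) in arterial endothelial-like cells at E11.5 and at 94.0 CPM (81.8 to 107) in those at E10.5, the highest class in each library. At E10.5 its interval overlapped that of V0, with 62.9 CPM (37.3 to 99.5). Smooth muscle or mural-like cells held 74.5 CPM (67.3 to 82.2) at E11.5 and 20.9 CPM (17.8 to 24.4) at E10.5. Hey2 was under 5 CPM in 14 of 19 classes at E11.5 and in 18 of 24 at E10.5. Heyl reached 162 CPM (151 to 173) in smooth muscle or mural-like cells at E11.5 and 53.5 CPM (48.4 to 58.9) in those at E10.5. Its other class over 20 CPM was neural crest or glia-like cells, with 41.4 CPM (36.0 to 47.3) at E11.5 and 53.1 CPM (47.5 to 59.2) at E10.5. At E10.5 the intervals of these classes overlapped, so their order was not resolved, whereas at E11.5 they lay apart. In arterial endothelial-like cells Heyl had 3 UMIs at E11.5 and 9 at E10.5, while smooth muscle or mural-like cells held all 3 Hey genes.

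Hes1 was at 20 CPM or more in 14 of 19 classes at E11.5 and in 21 of 24 at E10.5. Nephric epithelial-like cells led at E11.5 with 152 CPM (138 to 166). Notochord or floor plate-like cells led at E10.5 with 152 CPM (136 to 170), and the interval of the next class overlapped theirs. Low levels were found in sympathetic or enteric precursor-like cells, with 2.24 CPM (0.902 to 4.62) at E11.5 and 6.57 CPM (3.89 to 10.4) at E10.5, and in neuron-like cells, with 1.38 CPM (0.0350 to 7.71) at E10.5. Hes5 was under 5 CPM in 18 of 19 classes at E11.5, with arterial endothelial-like cells at 16.8 CPM (10.2 to 25.9) as the exception. At E10.5 Hes5 reached 258 CPM (210 to 315) in an unnamed neural cluster, N0, and 224 CPM (192 to 259) in neural progenitor-like cells, which did not differ beyond these intervals. No class of neural progenitors was found at E11.5, and the part of these cells in the difference between whole libraries was not tested.

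Nrarp at E11.5 was measured at 111 CPM (92.5 to 131) in arterial endothelial-like cells, 104 CPM (95.7 to 113) in smooth muscle or mural-like cells and 81.6 CPM (72.1 to 92.1) in venous or capillary endothelial-like cells. The intervals of the arterial and smooth muscle classes overlapped, and no other class of at least 50 cells passed 20 CPM. At E10.5 Nrarp stood at 329 CPM (274 to 392) in N0 and 318 CPM (281 to 360) in neural progenitor-like cells, then at 203 CPM (154 to 262) in V0 and 184 CPM (166 to 202) in arterial endothelial-like cells. Neither of these pairs was resolved, while the neural pair lay above the vascular pair.

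**Figure D1:**
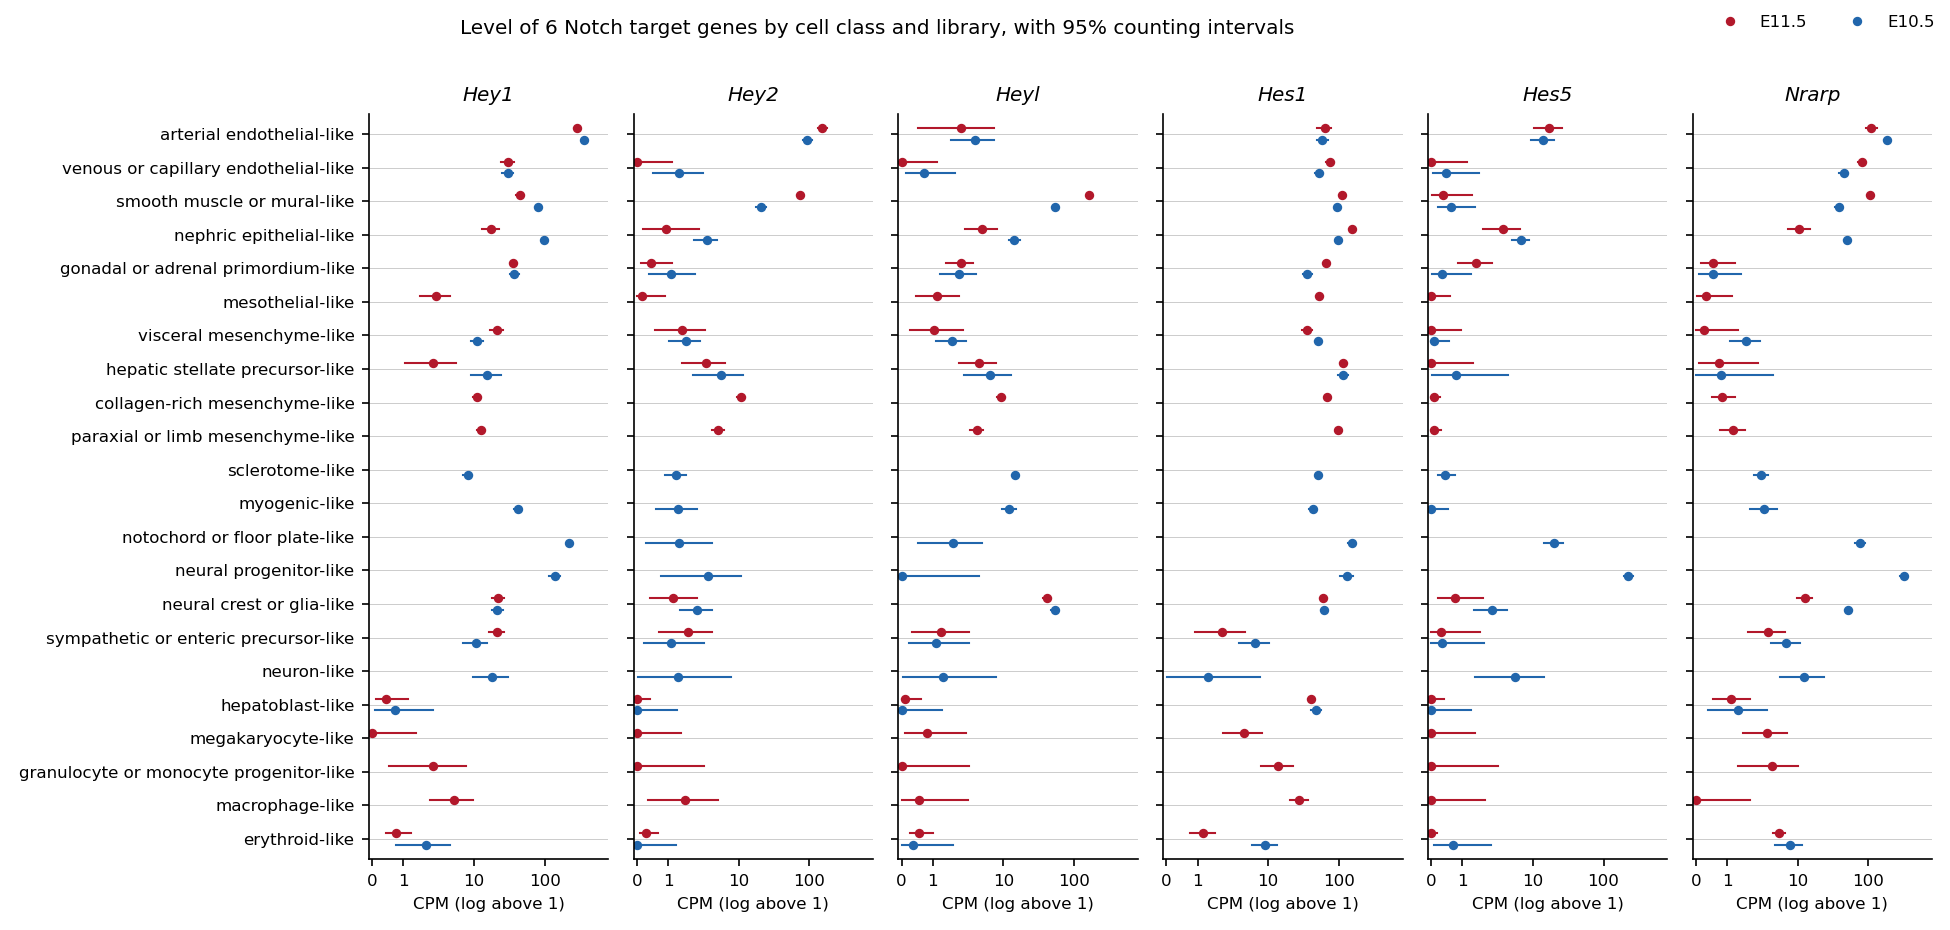
Level of each gene in CPM (horizontal axes, logarithmic above 1 CPM, with 95% Poisson intervals as lines) in the named classes with at least 50 cells, with E11.5 and E10.5 as separate points. Hey1 and Hey2 stand out in arterial endothelial-like cells, Heyl in smooth muscle or mural-like cells, Hes5 in neural progenitor-like cells at E10.5, and Hes1 is spread over most classes.

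The second comparison set arterial endothelial-like cells against the other endothelial-like cells of the same library (venous, capillary and sinusoidal). A gene was called past the fold when the levels differed at least 2-fold and it had at least 20 UMIs in both groups together. At E11.5, 3 of 5 Notch targets with enough UMIs (Hey1, Hey2 and Hes5) were past the fold on the higher side and 0 on the lower side, where 12.9% of 10232 genes were higher and 8.72% were lower. At E10.5, 4 of 5 (Hey1, Hey2, Hes5 and Nrarp) were higher and 0 lower, where 17.5% of 10628 genes were higher and 5.99% were lower. Hey2 and Hes5 had enough UMIs through the arterial cells alone, with 7 UMIs or fewer in the other endothelium, so these counts are a description. With at least 20 UMIs asked of each group, 3 targets were left (Hey1, Hes1 and Nrarp). Of these, Hey1 was higher in arterial cells at E11.5, where 12.4% of genes were higher, and Hey1 and Nrarp at E10.5, where 15.1% were. Neither library has a replicate.

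Hey1 was measured at 286 CPM in arterial cells and 24.8 CPM (20.2 to 30.1) in the other endothelium at E11.5, a log2 ratio of 3.53 (3.21 to 3.86). At E10.5 it was measured at 365 CPM in arterial cells and 25.2 CPM (21.0 to 29.9) in the other endothelium, a log2 ratio of 3.86 (3.59 to 4.14). Within the endothelial clusters, nearly all Hey2 UMIs were in the arterial cells of both libraries. It had 182 UMIs in arterial cells and 2 in the other endothelium at E11.5 (log2 ratio 8.31, 6.43 to 11.36), and 216 and 7 UMIs at E10.5 (log2 ratio 6.11, 5.05 to 7.45). Classes were also set per cell by marker UMIs over all clusters, not the endothelial ones alone. This took in 373 arterial and 1606 other cells at E11.5 (494 and 1199 at E10.5). The endothelial clusters held 57 arterial and 132 other cells at E11.5 (140 and 128 at E10.5). The other cells of the per-cell setting were therefore not limited to endothelial clusters. In that setting the log2 ratio of Hey2 was 3.01 at E11.5 and 3.11 at E10.5. Nrarp at E11.5 differed between settings, which did not cover the same cells. In the clusters it stood at 111 CPM in arterial cells and 77.5 CPM (69.2 to 86.4) in the other endothelium, a log2 ratio of 0.51 (0.21 to 0.81). With likely doublets kept the ratio was 0.05. With classes set per cell over all clusters it was 2.98, past the fold, which is not a ratio over other endothelium alone. At E10.5 Nrarp stood at 184 CPM in arterial cells and 40.9 CPM (35.6 to 46.8) in the other endothelium, a log2 ratio of 2.17 (1.92 to 2.41). Hes1 did not set these cells apart, with 62.8 CPM in arterial cells and 73.9 CPM in the other endothelium at E11.5 (log2 ratio -0.23, -0.62 to 0.14) and 58.7 and 47.5 CPM at E10.5 (log2 ratio 0.31, -0.01 to 0.62).

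The pathway's other genes were described over a list of 65. It includes Efnb2, Gja5 and Sox17, which also served as markers of the arterial class, so their higher level there was partly set by the naming. Of the listed genes with enough UMIs, 18 of 52 were higher past the fold in arterial cells of the E11.5 library, where 12.9% of all genes were. In the E10.5 library 24 of 55 were higher, where 17.5% of all genes were. In each library 3 were on the lower side. UMIs were counted over both groups together, so a gene could have enough through the arterial cells alone. These counts are therefore a description. Ligands were higher for 3 of 4 at E11.5 and for 4 of 5 at E10.5. Dll4, the main arterial ligand, stood at 144 CPM in arterial cells and 28.6 CPM in the other endothelium at E11.5, and at 163 and 19.8 CPM at E10.5. Jag1 stood at 356 CPM in arterial cells and 8.66 CPM in the other endothelium at E11.5, and at 165 and 16.9 CPM at E10.5. Receptors were higher for 3 of 3 at E11.5 and for 3 of 4 at E10.5, with Notch1 at 259 CPM in arterial cells and 119 CPM in the other endothelium at E11.5 and at 255 and 80.8 CPM at E10.5.

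The arterial class was made of 3 clusters that the libraries filled unequally. V6 held 40 cells at E11.5 and 1 at E10.5, V1 held 6 and 119, and V7 held 11 and 20. V6 was led by the elastic fibre genes Fbln5 and Eln and V1 by the gap junction genes Gja5 and Gja4. Hey2 was measured at 222 CPM (188 to 260) in V6 at E11.5 and at 115 CPM (99.6 to 133) in V1 at E10.5. In V7 Hey2 was low in both libraries, at 35.1 CPM (19.6 to 57.9) at E11.5 and 38.0 CPM (24.4 to 56.6) at E10.5, while Hey1 there was high, at 283 CPM (235 to 338) and 391 CPM (344 to 443). V7 cells were also deeper, with medians of 32149 UMIs at E11.5 and 32651.5 UMIs at E10.5, and the part of depth in these values was not tested.

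Nearly all Hes5 UMIs of the arterial class were in V7, whose place in that class depended on the processing. Its 31 cells were arterial by their markers here, but with likely doublets kept 0 of them were in the arterial class, 26 were in the venous or capillary class and 5 were in neither. With at most 5% mitochondrial UMIs, 19 were left out by the filter, 10 were venous or capillary and 2 arterial. In V7 Hes5 it was measured at 44.4 CPM (26.8 to 69.4) at E11.5 and 46.0 CPM (30.8 to 66.0) at E10.5, against 1.43 CPM (0.0363 to 7.98) in V6 at E11.5 and 1.80 CPM (0.371 to 5.26) in V1 at E10.5. The UMIs lay in 4 of 11 V7 cells at E11.5, with 8, 5, 5 and 1 UMIs, and in 7 of 20 at E10.5, with 9, 8, 6, 2, 2, 1 and 1 UMIs. V7 thus held 19 of the 20 arterial Hes5 UMIs at E11.5 and 29 of the 32 at E10.5. Of 8 neural progenitor markers, 0 had a UMI in V7 at E11.5 and 3 had UMIs at E10.5. At E10.5 the 8 markers summed to 71.3 CPM in V7, 4.8 CPM in V1 and V6 together and 3523 CPM in neural progenitor-like cells. Sox2 stood at 28.5 CPM in V7 at E10.5 (18 UMIs in 20 cells), while V1 and V6 held 2 Sox2 UMIs in 120 cells. At E11.5 V1 and V6 held 1 Sox2 UMI in 46 cells, against 0 in V7. The part of neural transcripts in the Hes5 level of V7 was not tested. Over the whole class Hes5 was at least 23.2-fold higher in arterial cells than in the other endothelium at E11.5, where the other endothelium had 0 UMIs and was set at a floor of 3 UMIs over the group. At E10.5 its log2 ratio was 5.17 (3.20 to 8.27), with 32 and 2 UMIs. With likely doublets kept, which put V7 outside the arterial class, the direction turned to log2 ratios of -0.17 at E11.5 and -1.47 at E10.5. With at most 5% mitochondrial UMIs it turned to -0.30 at E10.5. Whether this Hes5 is arterial therefore rests on how V7 is assigned.

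**Figure D2:**
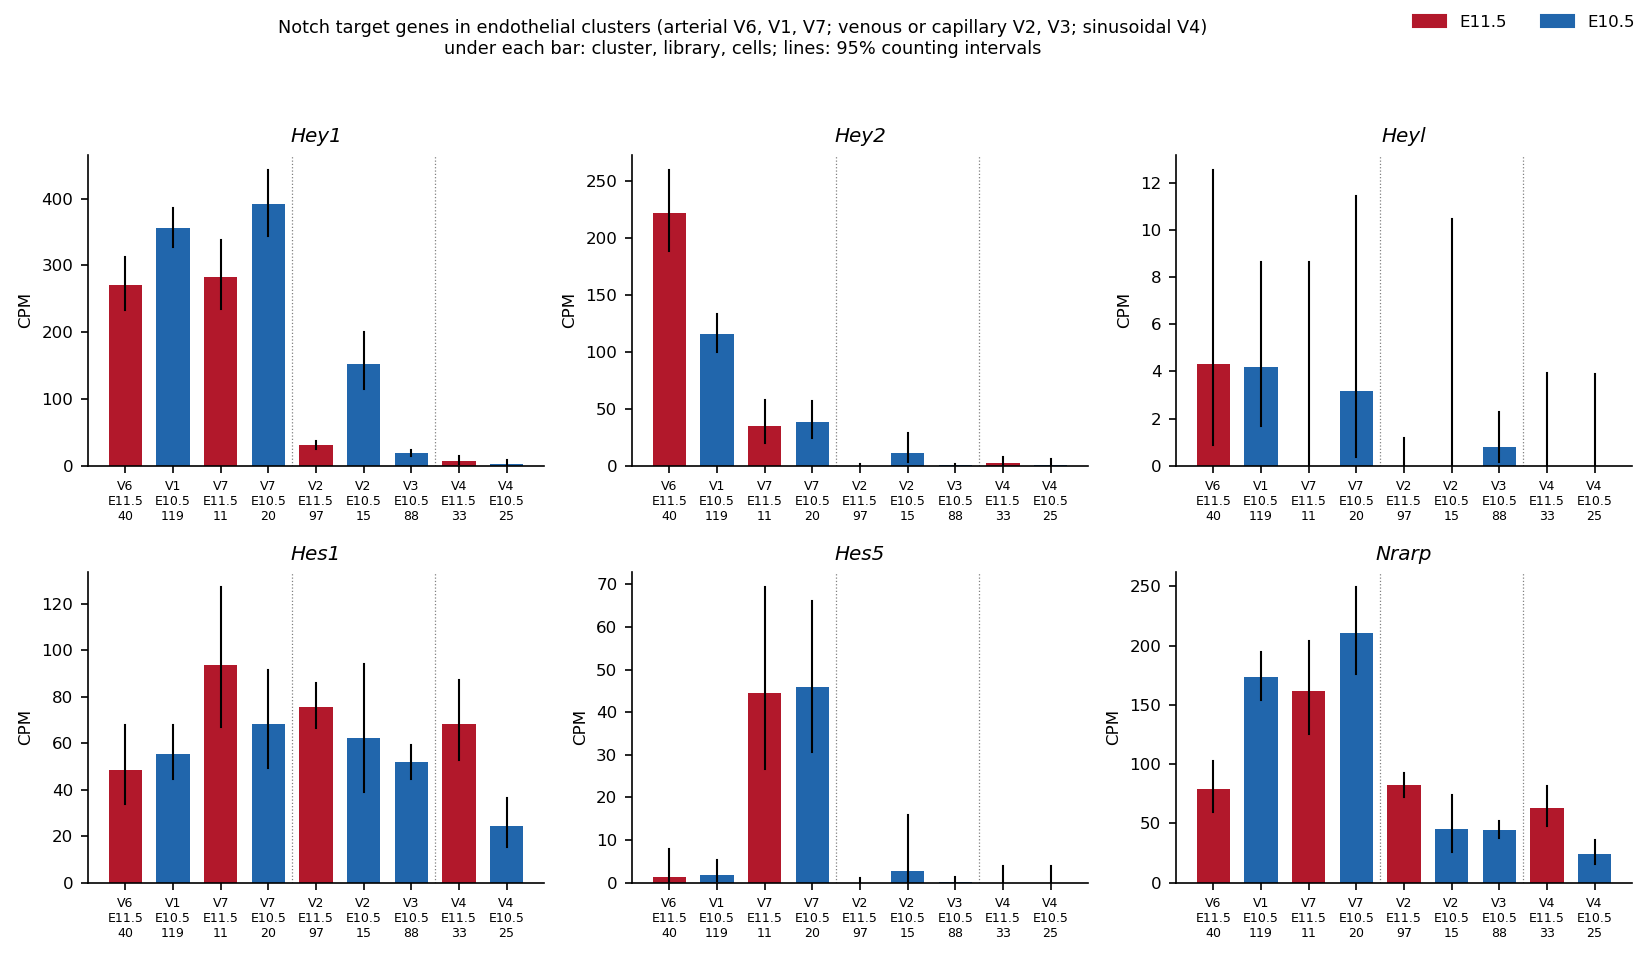
Level of each gene in CPM (vertical axes, lines for 95% Poisson intervals) in named endothelial-like clusters with at least 11 cells in a library, with E11.5 left of E10.5 within a cluster. The unnamed vascular clusters V0 and V5 are not shown. Hes5 is high in V7 at both stages, and Hey2 is higher in V6 and V1 than in V7.

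The third comparison was between stages within arterial endothelial-like cells. Of the 5 Notch targets with at least 20 UMIs, 0 were past 2-fold in either direction, where 3.17% of 9750 genes were at least 2-fold higher and 3.86% at least 2-fold lower at E11.5. Hey1 stood at 286 CPM at E11.5 and 365 CPM at E10.5 (log2 ratio -0.35, -0.54 to -0.17). Hey2 went the other way, with 152 CPM at E11.5 and 94.0 CPM at E10.5 (log2 ratio 0.70, 0.41 to 0.99). Nrarp stood at 111 CPM at E11.5 and 184 CPM at E10.5 (log2 ratio -0.73, -1.02 to -0.45). Hes1, at 62.8 and 58.7 CPM (log2 ratio 0.10, -0.33 to 0.52), and Hes5, at 16.8 and 13.9 CPM (log2 ratio 0.27, -0.62 to 1.12), had intervals that included no difference. Because the stages filled different clusters, stage and cluster cannot be told apart here. In V7 alone, which both libraries filled and which left the arterial class with likely doublets kept, where 3.22% of genes were at least 2-fold higher and 6.08% lower and 0 targets were past the fold, the log2 ratio was -0.47 (-0.79 to -0.15) for Hey1, -0.38 (-0.83 to 0.05) for Nrarp and -0.12 (-1.15 to 0.87) for Hey2. The interval of Hey2 within V7 thus covered both directions. With likely doublets kept, Nrarp passed 2-fold, at -1.01.

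Among the pathway's other genes in arterial cells, Jag1 stood at 356 CPM at E11.5 and 165 CPM at E10.5 and was past the fold. Dll4 (144 and 163 CPM), Notch1 (259 and 255 CPM) and Notch4 (97.2 and 92.2 CPM) were close in the libraries. Over the list, 2 of 53 genes were higher and 1 was lower, where 3.17% of all genes were higher and 3.86% lower. Markers of smooth muscle or mural cells had UMIs for 9 of 10 genes in arterial cells at E11.5 and 8 of 10 at E10.5, with sums of 182 and 417 CPM, and Kcnj8 was at 0 in both. In the smooth muscle class they summed to 15192 and 12007 CPM. Genes of the response to tissue handling summed to 2404 CPM at E11.5 and 1872 CPM at E10.5 in arterial cells, and their part in these levels was not tested.

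Detection per cell was described next. At least 3 of the 6 genes were found in 77.2% (exact 95% interval 64.2 to 87.3) of 57 arterial cells at E11.5 and in 67.1% (58.7 to 74.8) of 140 at E10.5, at median depths of 15793 and 13130.5 UMIs. In erythroid-like cells, at 24783 and 31200 UMIs, the share was 0 of 943 at E11.5 and 0 of 186 at E10.5. These depths, and the 5000 UMIs used for thinning below, count haemoglobin. In cluster 18, which held all erythroid-like cells at E10.5, haemoglobin made up a median of 53.3% of UMIs. Erythroid-like and arterial cells were therefore not set at equal depth for other genes. After thinning to 5000 UMIs, which left out 2 arterial cells at E11.5 and 7 at E10.5 (and 109 and 8 erythroid-like cells), the arterial shares were 25.5% (14 of 55 cells) and 26.3% (35 of 133 cells), so no difference between stages was detectable at this depth. Hey1 was found in 91.2% of arterial cells at E11.5 and 88.6% at E10.5 (65.5% and 72.9% thinned), and in 1.48% and 2.69% of erythroid-like cells (0.360% and 1.12% thinned). Hey2 was found in 87.7% and 67.9% of arterial cells (54.5% and 36.1% thinned), and in 0.636% of erythroid-like cells at E11.5 and 0 of 186 at E10.5. Both genes were thus found far more often in arterial than in erythroid-like cells of the same library. The erythroid values were 9.76% and 9.68% for Nrarp (2.16% and 2.25% thinned), against 66.7% and 79.3% in arterial cells (45.5% and 51.1% thinned).

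**Figure D3:**
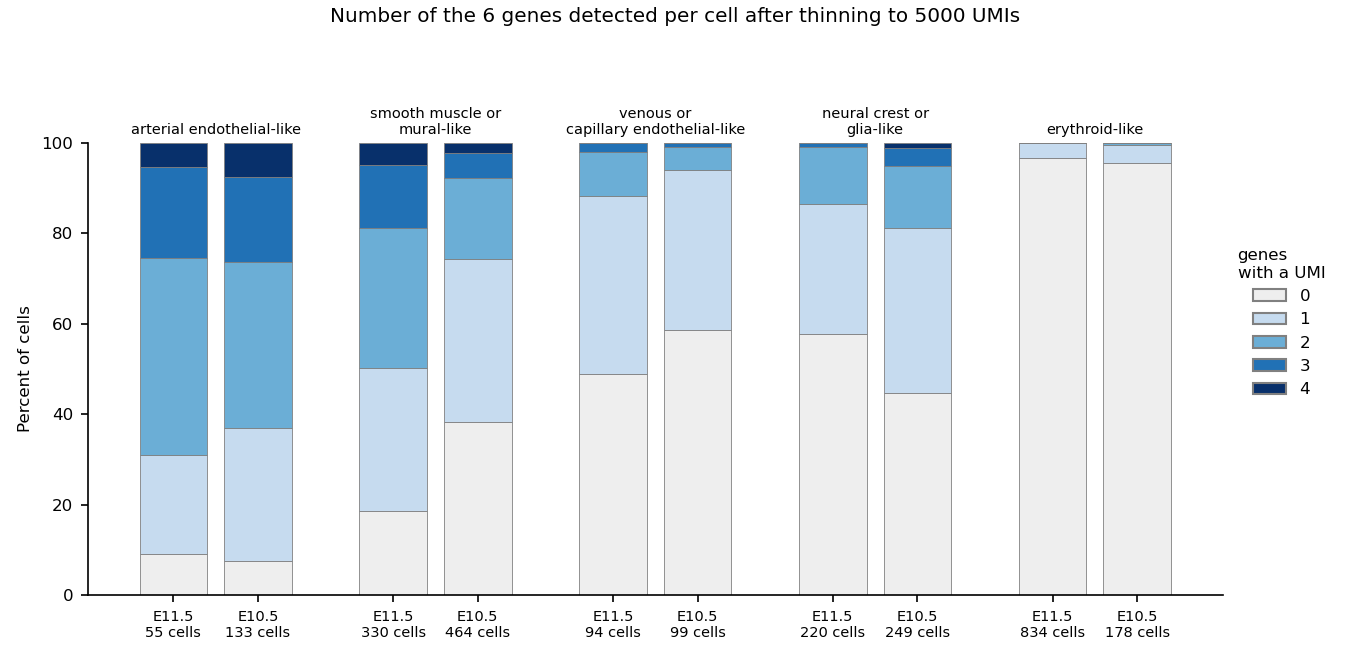
Percent of cells (vertical axis) with UMIs of 0 to 4 of the 6 genes after thinning each cell to 5000 UMIs, in 5 classes with E11.5 left of E10.5. Arterial endothelial-like and smooth muscle or mural-like cells hold most of the cells with at least 3 genes, and erythroid-like cells hold none. The 5000 UMIs include haemoglobin.

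In smooth muscle or mural-like cells, 3 of 5 Notch targets (Hey2, Heyl and Nrarp) were at least 2-fold higher at E11.5 and 0 lower, where 8.26% of 11908 genes were higher and 4.09% lower. Hey2 stood at 74.5 CPM at E11.5 and 20.9 CPM at E10.5 (log2 ratio 1.83, 1.56 to 2.11). Heyl stood at 162 and 53.5 CPM (log2 ratio 1.60, 1.43 to 1.77), and Nrarp at 104 CPM (95.7 to 113) and 38.0 CPM (33.7 to 42.6) (log2 ratio 1.46, 1.25 to 1.67). Hey1 had the opposite direction, with 44.6 CPM at E11.5 and 79.8 CPM (73.6 to 86.3) at E10.5 (log2 ratio -0.84, -1.06 to -0.62). Hes1 had 582 UMIs at E11.5 and 736 at E10.5 (log2 ratio 0.20, 0.04 to 0.36). The 5 genes did not move as a block: 3 were higher, and Hey1 was lower without passing the fold.

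Nearly all of these cells lay in cluster 20 at E11.5 (335 of 338) and all in cluster 13 at E10.5 (488), so stage and cluster cannot be told apart. Markers of contractile and mural cells differed as well. Myh11, the smooth muscle myosin, stood at 405 CPM at E11.5 and 51.1 CPM at E10.5, Rgs5 at 538 and 128 CPM, and Cspg4 at 123 and 22.2 CPM, while Tagln stood at 4910 and 5305 CPM. Of 50 pathway genes with enough UMIs, 5 were higher and 4 lower, where 8.26% of all genes were higher and 4.09% lower. Jag1 stood at 200 CPM at E11.5 and 41.2 CPM at E10.5, Notch1 at 65.6 and 31.8 CPM, and Notch3, the receptor known for mural cells, at 81.6 and 40.9 CPM, just inside the fold. At least 3 of the 6 targets were found in 60.1% of cells at E11.5 and 35.0% at E10.5 (18.8% and 7.76% thinned, with 8 and 24 cells left out), at median depths of 15389 and 15637.5 UMIs.

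In nephric epithelial-like cells most targets were lower at E11.5. Of 6 tested, 4 (Hey1, Hey2, Heyl and Nrarp) were at least 2-fold lower at E11.5 and 0 higher, where 4.13% of 12410 genes were lower and 12% higher. Hey1 stood at 17.2 CPM (12.9 to 22.3) at E11.5 and 97.5 CPM (91.0 to 104) at E10.5 (log2 ratio -2.51, -2.93 to -2.11). Nrarp stood at 10.6 CPM (7.35 to 14.8) at E11.5 and 49.5 CPM (44.9 to 54.4) at E10.5 (log2 ratio -2.22, -2.77 to -1.72). Heyl (4.99 and 14.2 CPM) and Hey2 (3 and 30 UMIs) had log2 ratios of -1.51 (-2.36 to -0.75) and -1.90 (-4.26 to -0.22). Both had under 20 UMIs at E11.5 and so had enough through E10.5 alone. Of the 3 targets with at least 20 UMIs in each library (Hey1, Hes1 and Nrarp), 2 were lower, where 1.89% of genes were. Hes1 was on the higher side without passing the fold, with 152 CPM at E11.5 and 98.0 CPM at E10.5 (log2 ratio 0.63, 0.47 to 0.79).

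Of the nephric cells at E11.5, 150 lay in cluster 32, which held no cell at E10.5, and 58 lay in cluster 12, which held all 441 cells at E10.5. In cluster 12 alone, Hey1 stood at 26.9 CPM (19.4 to 36.4) at E11.5 and 97.5 CPM at E10.5, and Nrarp at 21.2 CPM (14.6 to 29.7) and 49.5 CPM. Hey1 and Nrarp were past the fold there too, where 5.98% of genes were at least 2-fold lower. Hey2 had 2 and 30 UMIs there, with a log2 ratio of -1.45 whose interval (-4.56 to 0.53) included no difference, and Heyl was within 2-fold, at -0.77 (-1.72 to 0.06). Hes1 in cluster 12 stood at 146 CPM (127 to 166) at E11.5 and 98.0 CPM at E10.5. The ligand Dll1 stood at 6.55 CPM at E11.5 and 26.7 CPM at E10.5 over the class, while Jag1 (74.2 and 96.6 CPM) and Notch2 (91.7 and 93.5 CPM) were within 2-fold.

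Neural crest or glia-like cells were a single cluster with 247 cells at E11.5 and 267 at E10.5, at median depths of 22074 and 21774 UMIs. Of 6 targets, 3 (Hey2, Hes5 and Nrarp) were at least 2-fold lower at E11.5 and 0 higher, where 3.38% of 11576 genes were lower and 6.19% higher. Nrarp stood at 12.6 CPM at E11.5 and 52.5 CPM at E10.5 (log2 ratio -2.06, -2.47 to -1.67). Hey2 and Hes5 rested on few UMIs, 6 and 16 for Hey2 and 4 and 16 for Hes5. Of the 4 targets with at least 20 UMIs in each library, Nrarp alone was lower, where 1.31% of genes were. Hey2 turned direction with doublets kept, at 0.19. Hes1 (60.6 and 61.4 CPM), Hey1 (21.9 and 21.4 CPM) and Heyl (41.4 and 53.1 CPM) were close. The ligand Dll3 stood at 47.2 CPM at E11.5 and 185 CPM at E10.5 in these cells, Dll1 at 4.26 and 16.1 CPM, and Jag1 at 23.4 and 4.71 CPM, so Jag1 ran against them.

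Nrarp and Hes1 were on the higher side at E11.5 both in sinusoidal and in venous or capillary cells. They were past the fold in the sinusoidal cells and within it in the venous or capillary cells. In sinusoidal endothelial-like cells (cluster V4, 33 and 25 cells), both targets with enough UMIs were at least 2-fold higher, where 7.89% of 7541 genes were higher and 2.93% lower. Hes1 stood at 68.4 CPM (52.7 to 87.4) at E11.5 and 24.3 CPM (15.4 to 36.4) at E10.5 in V4 (log2 ratio 1.49, 0.79 to 2.25). Nrarp stood at 63.1 CPM (48.0 to 81.4) at E11.5 and 24.3 CPM (15.4 to 36.4) at E10.5 (log2 ratio 1.38, 0.66 to 2.14). In venous or capillary endothelial-like cells, 0 of 3 targets were past the fold, where 6.69% of 10417 genes were higher and 2.77% lower. Nrarp in these cells stood at 81.6 CPM at E11.5 and 44.6 CPM (38.5 to 51.5) at E10.5 (log2 ratio 0.87, 0.60 to 1.15). Hes1 there stood at 75.4 CPM at E11.5 and 52.7 CPM at E10.5 (log2 ratio 0.52, 0.25 to 0.79). Between the sinusoidal and the venous or capillary cells, the ratio intervals overlapped for Nrarp and met at their edges for Hes1. The venous or capillary cells lay mostly in V2 at E11.5 (97 of 99 cells) and in V3 at E10.5 (88 of 103).

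Over the 12 classes with at least 50 cells in each library, Nrarp was past the fold on the higher side in 1 and on the lower side in 3 of 8 classes with enough UMIs. Hey1 was higher in 0 and lower in 3 of 11, with log2 ratios of -2.52 to 0.98. The 3 were nephric epithelial-like, hepatic stellate precursor-like and erythroid-like cells. In erythroid-like cells Hey1 had 15 UMIs at E11.5 and 6 at E10.5, with an interval (-2.90 to 0.20) that included no difference. No target was past the fold in gonadal or adrenal primordium-like cells (background 14.3% higher and 6.1% lower), hepatoblast-like cells (8.05% and 4.66%) or visceral mesenchyme-like cells (8.22% and 4.48%). Nrarp was the single target past the fold, on the lower side, in the shallow unnamed cluster 0 (4.83% and 3.99%), with 8 and 27 UMIs. Hes1 was higher in 0 and lower in 2 of 12, both classes where it was low: sympathetic or enteric precursor-like cells (background 12.5% higher and 5.61% lower) and erythroid-like cells (19.2% and 5.2%). In erythroid-like cells Hes1 stood at 1.18 CPM at E11.5 and 9.13 CPM at E10.5, and in the single cluster shared by the libraries at 6.19 and 9.13 CPM, which did not pass the fold. In hepatic stellate precursor-like cells Hey1 stood at 2.65 CPM (7 UMIs) at E11.5 and 15.2 CPM (19 UMIs) at E10.5, where 5.67% of 9915 genes were at least 2-fold higher and 4.65% lower.

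**Figure D4:**
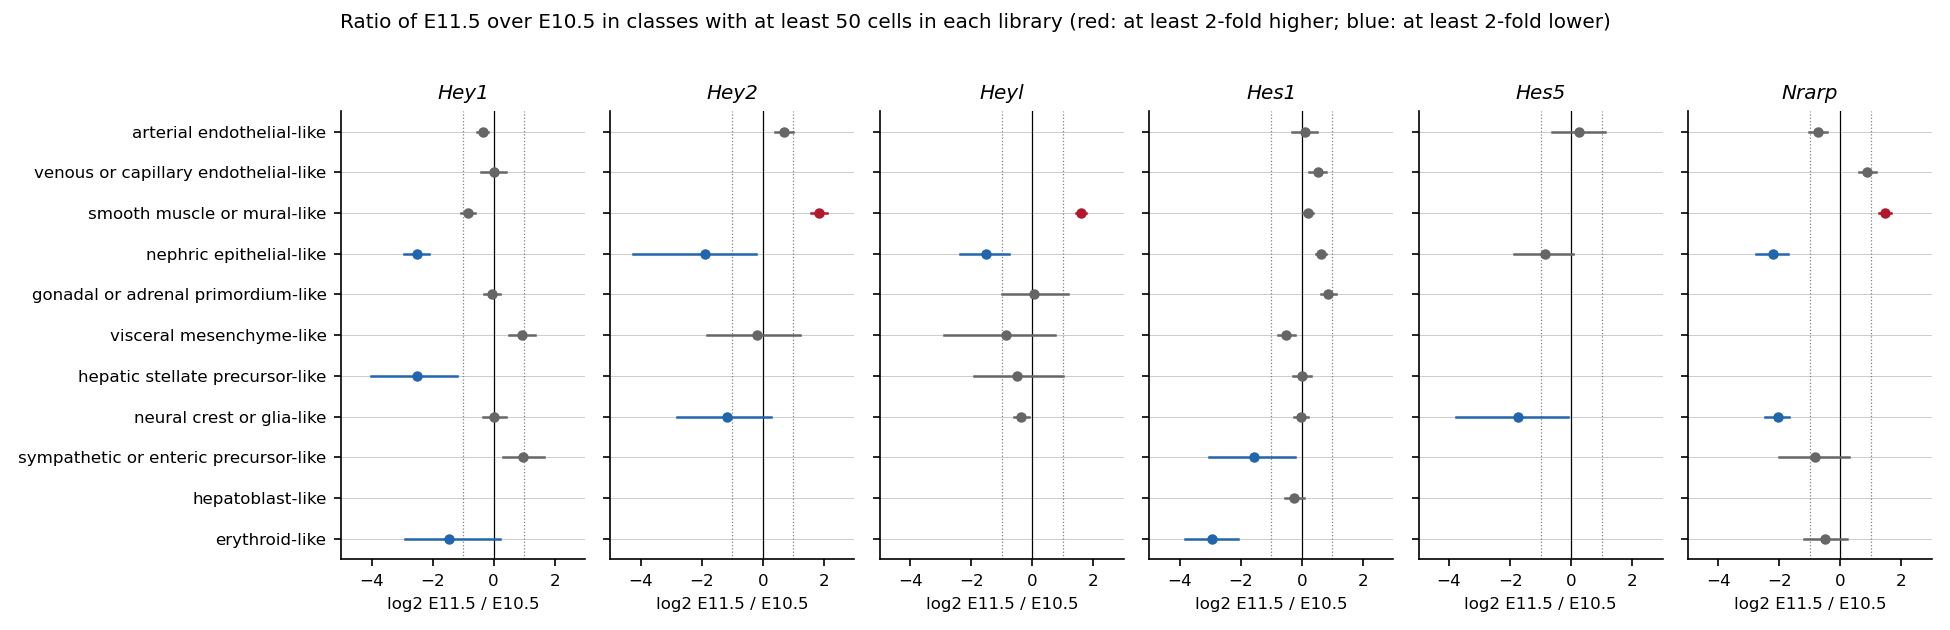
Log2 ratio of E11.5 over E10.5 (horizontal axes, lines for 95% counting intervals) for each gene in named classes with at least 50 cells in each library, shown where the gene had at least 20 UMIs. Hey2, Heyl and Nrarp lie on the higher side in smooth muscle or mural-like cells and on the lower side in nephric epithelial-like cells.

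The E10.5 library also held midline and neural clusters, in which the targets divided by cluster. Clusters N1, N2 and N3, led by the floor plate genes Shh and Foxa2, had Hey1 at 247 CPM (206 to 294), 446 CPM (387 to 511) and 352 CPM (286 to 429). Hes1 stood at 192, 258 and 230 CPM in the same clusters, so both genes were high in each. Hes5 had 0 UMIs in N1 (0 of 60 cells, where a floor of 3 counts allows a share of cells with a UMI of up to 5%), 43.3 CPM in N2 and 25.2 CPM in N3. Nrarp stood at 7.83 CPM in N1, 236 CPM in N2 and 126 CPM in N3, so floor plate-like cells were not alike in it.

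The neural progenitor-like clusters N4 and N6 and the unnamed N0 shared the leading genes Fabp7 and Fgfbp3. Hes5 stood at 216, 231 and 258 CPM in N4, N6 and N0, and Nrarp at 305, 332 and 329 CPM, with intervals that overlapped among the 3. Hey1 was less even, at 81.2 CPM (55.5 to 115) in N4 and 193 CPM (153 to 240) in N6. The unnamed N5, led by Neurog3, Dll1 and Insm1, had the highest Hes5 of these clusters, 424 CPM (339 to 524), with Hes1 at 19.7 CPM (5.38 to 50.5). N5 also held Dll1 at 484 CPM, Dll3 at 429 CPM and Hes6, which is known to oppose Hes1, at 755 CPM. Cluster 39, led by Car3, T and Shh, was low for all of them, with Hey1 and Hes1 at 42.4 CPM each, Hes5 at 17.0 CPM and Nrarp at 12.1 CPM. T marks the notochord. Median depths were 7135 to 15715 UMIs in these 8 clusters.

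**Figure D5:**
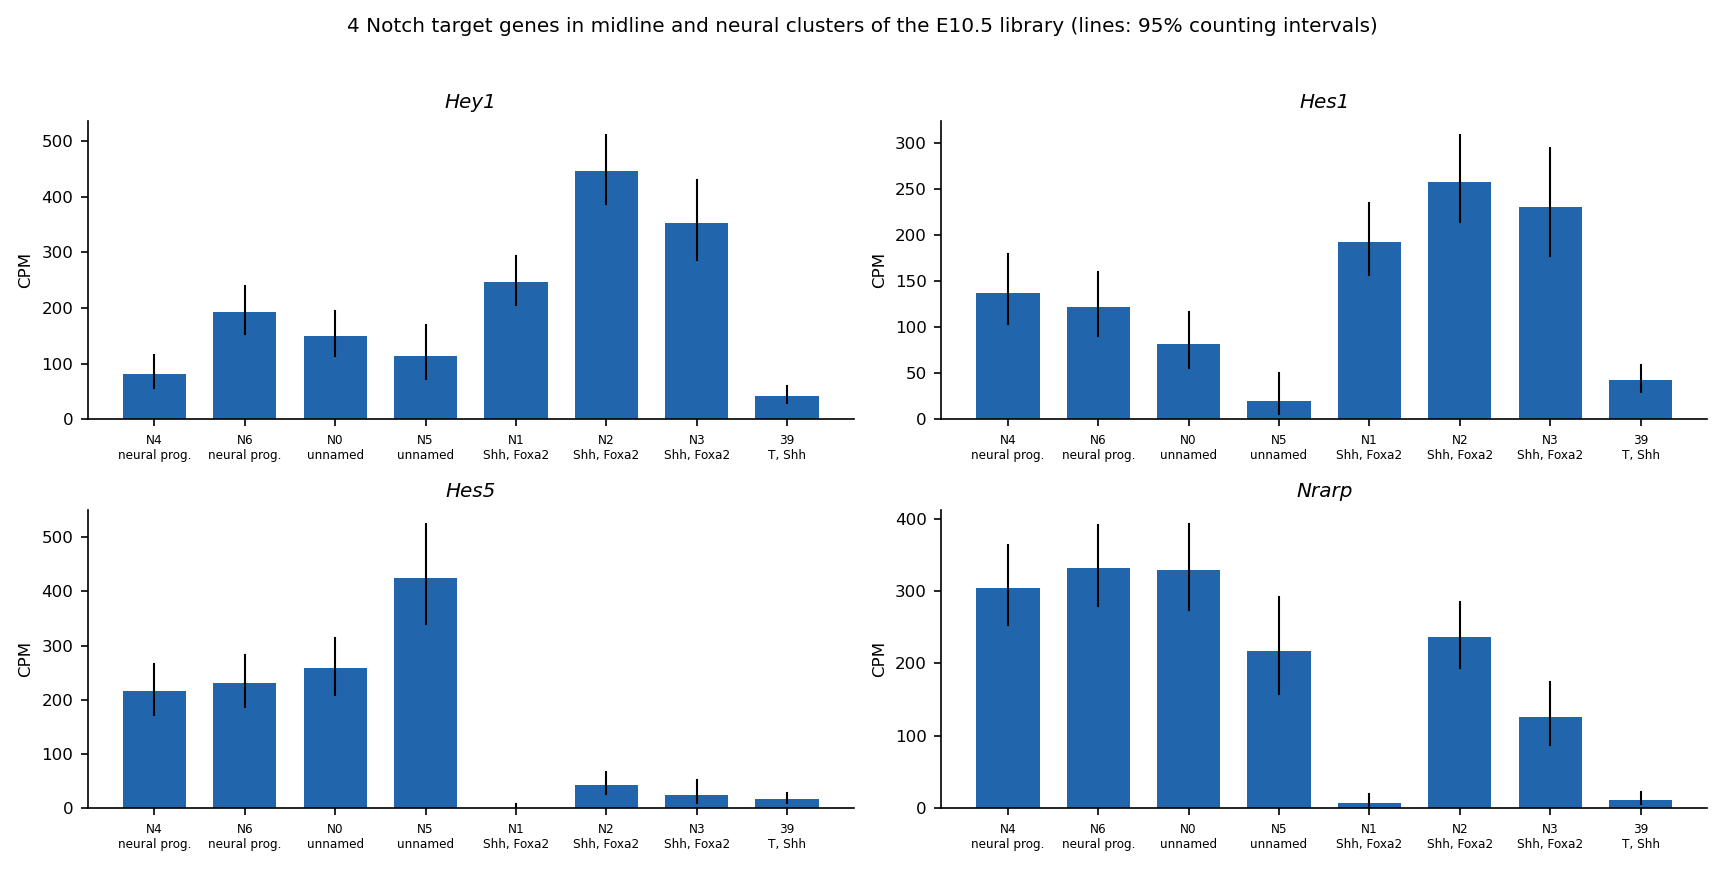
Level of Hey1, Hes1, Hes5 and Nrarp in CPM (vertical axes, lines for 95% Poisson intervals) in 8 midline and neural clusters of the E10.5 library. Hes5 is high in N4, N6, N0 and N5, and Hes1 in N1, N2 and N3.

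Genes with the most similar pattern were named from Pearson correlations of log2(CPM + 10) over 43 points, the 19 and 24 classes of the libraries, among 8003 genes that reached 50 CPM. The points share libraries and the same clustering, so these values are a description. Hey1 was most like Tmem100 (r = 0.82), an arterial endothelial gene, and Nedd9, with Nrarp next (r = 0.80). Nrarp was most like Hey1 (r = 0.80), and Notch1 (r = 0.78) was among its 5 closest genes. Hey2 was most like Tm4sf1 (r = 0.89) and Bmx (r = 0.86), both expressed in endothelium, and Bmx was a marker used to name the arterial class. Heyl was most like Prss12 (r = 0.79) and Map3k7cl, followed by the smooth muscle genes Myocd (r = 0.75) and Lmod1 (r = 0.73). Hes1 was most like Yap1 (r = 0.89), a growth regulator of the Hippo pathway, and Hes5 most like the neural gene Nkx2-9 (r = 0.94). Among the 6, the lowest pairing was Heyl with Hes5 (r = -0.15).

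Blood-forming cells were few. In haemogenic or cluster-like cells (B4, 4 cells at E11.5 and 15 at E10.5), Hey1 stood at 39.5 CPM (12.8 to 92.1) and 26.4 CPM (15.4 to 42.3), and Nrarp at 63.1 and 40.4 CPM, while Hey2, Heyl and Hes5 had 0 UMIs in both. In cells with at least 2 UMIs each of Cdh5 and Runx1 (13 and 16 cells), Hes1 stood at 65.8 CPM (43.7 to 95.1) at E11.5 and 36.9 CPM (24.7 to 53.0) at E10.5, and the intervals overlapped.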

How the data were processed

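The authors deposited 2 matrices of raw UMI counts, 1 per stage, made with the 10x 3' assay per the labels' protocols and counted with Cell Ranger 5.0.0 on mm10 (GRCm38) per the submitters' processing notes. The deposited values were whole numbers and the lowest barcode total was 500 UMIs. The 6 genes and the lists were chosen with earlier results of these data known.

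A barcode needed 1000 UMIs, 500 genes and no more than 10% mitochondrial UMIs (79.4% at E11.5, 79.2% at E10.5). Scrublet's automatic threshold marked 0 cells, so the 8% with the highest scores were removed (780 and 696). Clustering joined the libraries and used 2000 variable genes, 40 principal components and 15 neighbours (Leiden, resolution 1.0). Members, haemoglobin, mitochondrial, Xist and Y-linked genes were left out, as were Notch pathway genes other than the markers Efnb2, Gja5, Sox17, Runx1 and Dlk1. Vascular, blood and neural clusters were clustered again (20 components, resolution 0.5). Naming drew on 31 marker lists: a name needed 3 markers that were 3-fold above other clusters and at 20 CPM or more, and was withheld where the 10 leading genes belonged to another list. Naming thresholds, the reclustered sets and the single-cluster comparisons were set after seeing the data.

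CPM intervals are exact Poisson, shares exact Clopper-Pearson and ratios exact conditional, all at 95%. UMIs are summed over cells, so variation between cells and embryos is not covered. Cells of 1 library are not replicates, so no p-value was computed. Named genes were the 6 members and, from the pathway list, ligands, receptors, Hes6 and Rbpj; markers and leading genes of clusters were named beside the results they touch. Alternatives were 2000 UMIs per barcode, 5% as the mitochondrial limit, no removal of doublets, coarser (0.5) and finer (2.0) clustering, pathway genes kept in, classes set per cell by marker UMIs, CPM over all genes, the median ratio set to 0, means over cells, and thinning to 5000 UMIs; V0 counted as arterial, single clusters and 20 UMIs in each group were added after seeing the data. Promoters came from RefSeq. The ratio intervals were tested on simulated Poisson counts, which hold no variation between cells or embryos. Python 3.11.15, scanpy 1.11.5, numpy 2.4.6, scipy 1.17.1, pandas 2.3.3, leidenalg 0.10.2 and matplotlib 3.10.9 were used.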

Additional observations from a re-analysis of the deposited data

Results flagged for a closer look

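Log2 ratios of E11.5 over E10.5 lay on opposite sides in smooth muscle or mural-like and nephric epithelial-like cells for 3 of the genes, with both intervals apart from 0. The ratio was 1.83 in smooth muscle or mural-like cells and -1.90 in nephric epithelial-like cells for Hey2, where the nephric value rests on 3 and 30 UMIs. It was 1.60 and -1.51 for Heyl, where the nephric value rests on 16 and 122 UMIs, and 1.46 and -2.22 for Nrarp. In nephric cluster 12 alone, which held cells of both libraries, it was -1.45 (-4.56 to 0.53) for Hey2 and -0.77 (-1.72 to 0.06) for Heyl. Both of these intervals included 0. For Nrarp it was -1.23 (-1.78 to -0.71) in that cluster. The difference between the classes was not tested, since each stage has 1 library. The 2 classes lay mostly in different clusters at each stage.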

How the results depend on the processing

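Of 75 recomputed arterial stage ratios, 66 lay within the original interval, and 7 changed sign (Heyl 3 times, Hes5 in 2 settings, Hes1 and Hey2 once each), none of them past 2-fold originally. For arterial over other endothelium 6 of 138 changed sign, 3 of them past 2-fold originally, and for stage ratios in other classes 20 of 271, 2 of them past it. Of the levels, 408 of 546 lay within the original interval. The arterial stage ratio of Nrarp ranged from -1.01 to -0.14, that of Hey1 from -0.74 to -0.10 and that of Hey2 from -0.12 to 0.88. With doublets kept, 1 arterial target in place of 0 was past 2-fold between stages, Hes5 in arterial over other endothelium reversed to -0.17 at E11.5 and -1.47 at E10.5, and Hey2 in neural crest or glia-like cells reversed to 0.19. Hes5 at E10.5 also reversed to -0.30 with at most 5% mitochondrial UMIs, and Hey1 in erythroid-like cells to 0.56 in cluster 18 alone, on 3 and 6 UMIs. With classes set per cell by marker UMIs over all clusters, 5 targets in place of 3, Nrarp among them, were higher in arterial cells at E11.5. The other cells of that setting were not limited to endothelial clusters. With 20 UMIs asked of each group, 1 in place of 3 was higher at E11.5, 2 in place of 4 at E10.5, and 4 in place of 12 stage ratios in other classes were on the lower side. In the other classes, means over cells gave 6 ratios in place of 3 past 2-fold on the higher side, and thinning gave 4 in place of 12 on the lower side. Thinning gave shares of arterial cells with at least 3 targets of 25.5% in place of 77.2% at E11.5 and 26.3% in place of 67.1% at E10.5. The causes were not tested, except that thinning leaves fewer UMIs.

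No paired analysis was possible because each stage has 1 library. Nothing separates stage from library, dissection or embryo. Targets under 20 UMIs in a class, such as Heyl in arterial cells, had too few counts for a ratio.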

Other observations

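The unnamed vascular cluster V0 belonged to no class. At E11.5 (41 cells) and E10.5 (120 cells) it held Hey1 at 159 CPM (88.8 to 262) and 500 CPM (421 to 589), Hey2 at 31.7 and 62.9 CPM, Hes1 at 95.2 and 45.5 CPM, and Nrarp at 169 and 203 CPM. In venous or capillary endothelial-like cluster V2, Hey1 stood at 30.6 CPM in 97 cells at E11.5 and at 153 CPM in 15 cells at E10.5, where 9 of the 15 cells had a UMI.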
